A study of Mus musculus with 8 samples.

Results

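Integrated stress response genes were examined in photoreceptor cells of mice with and without a functional Lpcat1 gene. The genes were 10 in number and were chosen by name, with earlier results of these data known. They were Eif2ak3, Atf4, Ddit3, Trib3, Ppp1r15a, Chac1, Asns, Sesn2, Ddit4 and Herpud1. A probe was assigned to a gene when its RefSeq accession matched that gene, and 10 of 10 genes were found among the 22911 named genes on the array. All 10 of these genes were also among the 14848 genes with a probe bright enough to be tested, and each of their 13 probes was well above background on all 8 arrays.

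Photoreceptor cells had been isolated at postnatal day 8 from C57BL/6 mice, and their RNA was measured on 8 single-color SurePrint G3 mouse arrays. The groups were 4 samples heterozygous for the Lpcat1 deletion (HZ) and 4 homozygous knockout samples (KO), so the control cells carried the deleted allele as well. The deletion was global, not limited to photoreceptors, and the line had been made on a C57BL6/N background and crossed to C57BL6/J mice so that animals homozygous for the rd8 mutation of Crb1 were not used. Retinas were dissociated with trypsin, and cells carrying CD73, a surface protein of photoreceptors encoded by Nt5e, were collected with magnetic beads. The labels number the samples of each genotype from 1 to 4 and do not say whether a sample came from a single animal or a pool, so p-values measure the spread between these samples, which may be partly technical.

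The integrated stress response begins when a kinase phosphorylates the translation factor eIF2 on its alpha subunit. Most protein synthesis then slows, while translation of the mRNA for the transcription factor ATF4 increases. ATF4 and the factor CHOP, which Ddit3 encodes, switch on genes for amino acid supply, redox balance and, under lasting stress, cell death. In photoreceptors this pathway is best known from models of retinal degeneration in which rhodopsin is misfolded. Because ATF4 is controlled largely at translation, its mRNA level alone says little about its activity, and mRNA is what an array reads.

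Each value below is a normalized log2 signal, that is, the log2 of a background-corrected spot intensity minus the 75th percentile of the same array. A value of 0 therefore lies at that percentile, and a difference of 1 between groups is a 2-fold change. Differences are given as KO minus HZ with the standard error and the Benjamini-Hochberg adjusted p of limma over 34303 probes. Signals of different probes are not compared with each other, since brightness also depends on the probe. The methods of the study name a fold change over 1.2 or 1.5 and a q-value under 0.05 or 0.5 without pairing them. Here 1.2 was combined with an adjusted p under 0.05, called the stricter thresholds, and 1.5 with an adjusted p under 0.5, called the looser ones.

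Some facts of the whole series bear on the values. The probe for Lpcat1, the targeted gene, read -0.81, -0.95, -1.02 and -1.17 in HZ and -0.97, -1.16, -1.11 and -0.85 in KO. The groups overlapped and differed by -0.037 (SE 0.11, adjusted p = 0.931), or by 0.0049 with normexp background correction. Where this probe lies relative to the deleted part was not analysed here, so it does not check the labels, and genotypes are given as labelled. The KO arrays occupied row 1 of the slide and the HZ arrays row 2, and an effect of the row cannot be told apart from one of genotype. The scanner software called 458 spots non-uniform on HZ replicate 4 and 2 to 25 elsewhere.

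Markers of the labelled cell type were present on every array. All 12 listed rod genes were tested and well above background on 8 of 8 arrays. Their summed linear signal, in multiples of the 75th percentile, was 966 to 1230 in HZ and 965 to 1070 in KO. Of the 12 rod genes, 2 were higher and 10 lower in KO, with a median difference of -0.12 and 0 past either pair of thresholds. The largest differences were those of Gnat1, the alpha subunit of rod transducin (0.36), and Pdc, which encodes phosducin (-0.33). With normexp background correction Gnat1 was 0.13, and Pdc was -0.60 (adjusted p = 0.226) and passed the looser thresholds. In RNA from bulk samples, fewer cells of a type and less RNA per cell cannot be told apart.

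Transcripts of other cell types were present and differed in level between the groups. Of 11 tested markers of the retinal pigment epithelium, the pigmented layer behind the photoreceptors, 11 were lower in KO, 7 of them past the looser thresholds, and the median difference was -1.68. Their summed signal was 12.1 to 26.1 in HZ and 6.11 to 10 in KO, and the largest differences were those of Rpe65, the visual cycle isomerase (-2.38), and Mlana, a melanosome protein (-2.26). With normexp background correction these were -1.46 and -1.43, and 9 of the 11 passed the looser thresholds. With the replicate number as a block 9 passed as well. Of all 34303 probes, 279 (0.813%) were lower past the looser thresholds, 300 with normexp and 913 with the block. Lrat was the listed marker too dim to be tested. Of 12 microglial markers, 12 were higher in KO, 1 of them, Tmem119, past the looser thresholds (0.76, adjusted p = 0.409), with a median difference of 0.78 and a summed signal of 4.01 to 7.93 in HZ and 5.81 to 10.1 in KO. With the replicate number as a block 9 of the 12 passed the looser thresholds, and with normexp background correction 4 did, not among them Tmem119 (0.19). Of all probes 0.227% were higher past the looser thresholds, 0.74% with the block and 0.262% with normexp. Cx3cr1, the fractalkine receptor, differed by 0.93 and Ctss, a lysosomal protease, by 0.92. HZ replicate 4 stood apart from its group, with a summed signal of 7.93 against 4.01 to 4.61, and in that pair Cx3cr1 and Ctss were lower in KO, by differences of -0.24 and -0.38. The microglia-restricted genes Tmem119 and P2ry12 were near background, being well above it on 1 and 2 of 4 HZ arrays and on 3 and 2 of 4 KO arrays. Leaving out HZ replicate 3 or either of KO replicates 3 and 4 left 0 probes past the looser thresholds in either direction. Leaving out HZ replicate 1 left 1 lower and 0 higher, so whether a probe is called depends on which arrays are fitted. The part of these other cells in the stress gene values was not tested.

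Among the stress genes themselves, 0 of 10 passed the stricter or the looser thresholds in the fit described above. By the brightest probe of each of the 10 genes, 9 were higher in KO and 1, Ddit4, was lower. Between 7 and 9 were higher under the 17 alternatives in which all genes were refitted. Of all 13 probes of these genes, 10 were higher, and the dimmer probes of Asns (-0.073) and Herpud1 (-0.02) were lower. The median of the 10 differences was 0.17, while over all tested probes the median was 0.0023 and 50.5% were higher in KO. Past the stricter thresholds 0% of all probes were called, and past the looser ones 0.813% were lower and 0.227% higher. The largest difference was that of Chac1 (0.79), followed by Trib3 (0.35), Herpud1 (0.23) and Eif2ak3 (0.21). An unadjusted limma p under 0.05 was reached by 3 of 10 genes, Chac1, Trib3 and Herpud1, all higher in KO, as it was by 4.69% of all probes in that direction. For Trib3 and Herpud1 the KO and HZ values did not overlap, which held with KO higher for 2 of 10 genes and for 4.19% of all probes.

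**Figure D1:**
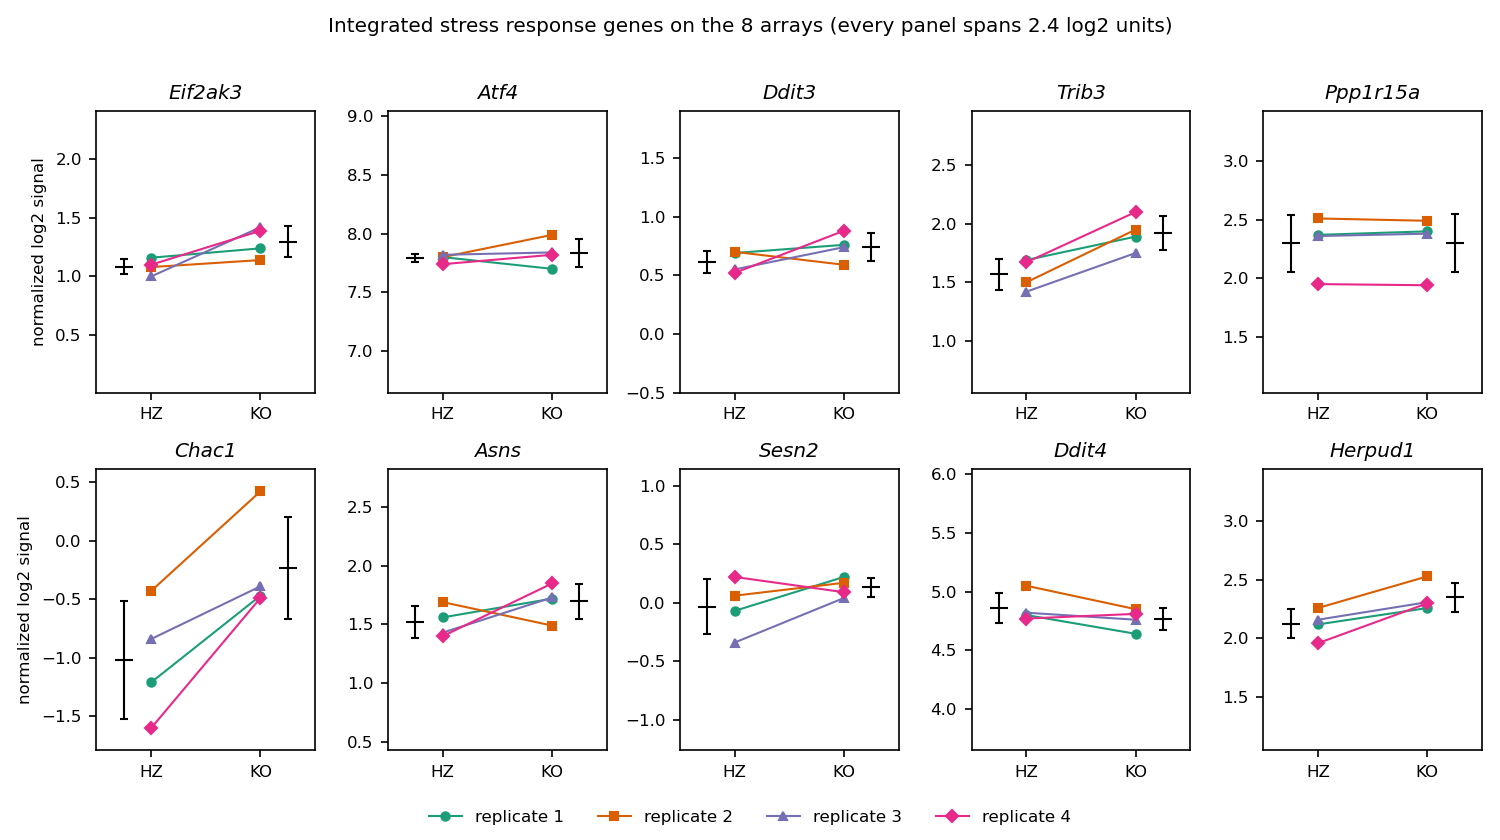
Normalized log2 signal (vertical axis) of the 10 genes on the 4 HZ and 4 KO arrays. Lines join arrays with the same replicate number, horizontal ticks with bars give the group mean and SD, and every panel spans the same number of log2 units. The 4 lines of Chac1, Trib3, Herpud1 and Eif2ak3 all slope upward, the lines of Ppp1r15a are nearly level, and those of Atf4, Ddit3, Asns, Sesn2 and Ddit4 run in both directions.

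Arrays with the same replicate number shared a column of the slide and deviated together from their group means, so differences within numbers were examined as well. KO was higher than HZ in 4 of 4 such pairs for 4 of 10 genes, Eif2ak3, Trib3, Chac1 and Herpud1, compared with 14.8% of all probes. With the replicate number as a block in limma, Chac1 passed the looser thresholds, as did 0.74% of all probes in that direction, and 0 genes passed the stricter ones. The other 9 genes stayed short of both pairs of thresholds with the block.

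The first gene of the pathway on the array was Eif2ak3, which encodes PERK, the eIF2 kinase of the endoplasmic reticulum. Its signal was 1.16, 1.08, 1.00 and 1.1 in HZ and 1.24, 1.14, 1.42 and 1.39 in KO. KO replicates 3 and 4 were the highest arrays, and KO replicate 2 lay below HZ replicate 1, so the groups overlapped. The means were 1.09 ± 0.064 and 1.30 ± 0.13 (SD, n = 4 each). Their difference was 0.21 (SE 0.092, adjusted p = 0.614), with a 95% interval of -0.0016 to 0.42. It was 0.10 with normexp background correction.

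Atf4, the transcription factor at the center of the response, was read by 2 probes that behaved differently. The brighter probe gave 7.80, 7.80, 7.82 and 7.74 in HZ and 7.70, 7.99, 7.84 and 7.82 in KO. KO replicate 1 was the lowest and KO replicate 2 the highest of the 8 arrays, and the HZ values lay between them. The difference of 0.048 (SE 0.085, adjusted p = 0.881, 95% interval -0.15 to 0.24) was -0.06 with normexp background correction and -0.0033 without KO replicate 2, so its direction was not settled.

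The dimmer Atf4 probe gave 3.09, 3.18, 2.95 and 3.03 in HZ and 3.24, 3.34, 3.22 and 3.42 in KO. Here every KO array lay above every HZ array, and KO was higher in 4 of 4 pairs. The difference was 0.25 (SE 0.089, adjusted p = 0.547, 95% interval 0.041 to 0.45), and it was 0.24 with normexp background correction. Which part of the transcript each probe covers was not analysed here.

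Ddit3 encodes CHOP, the factor most often read as a sign of endoplasmic reticulum stress. Its signal was 0.69, 0.70, 0.55 and 0.52 in HZ and 0.76, 0.59, 0.74 and 0.88 in KO. KO replicate 4 was the highest array, and KO replicate 2 lay among the HZ values. The means of 0.62 ± 0.094 and 0.74 ± 0.12 (SD, n = 4 each) differed by 0.13 (SE 0.094, adjusted p = 0.732, 95% interval -0.089 to 0.34). KO was higher in 3 of 4 pairs. The difference was 0.26 (adjusted p = 0.393) with normexp background correction, with an unadjusted p under 0.05, which 6.13% of all probes reached with KO higher, and 0.08 to 0.18 with each array left out.

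Trib3 and Ppp1r15a act as brakes on the response. Trib3 is a pseudokinase that CHOP and ATF4 induce and that restrains both factors and the kinase AKT. Its signal was 1.69, 1.5, 1.42 and 1.67 in HZ and 1.89, 1.95, 1.75 and 2.10 in KO. The lowest KO array, replicate 3, lay above the highest HZ array, replicate 1. The means were 1.57 ± 0.13 and 1.92 ± 0.14 (SD, n = 4 each), a 1.28-fold difference (log2 0.35, SE 0.11, adjusted p = 0.486, 95% interval 0.10 to 0.60). Within numbers, KO exceeded HZ by 0.19, 0.45, 0.33 and 0.43. The difference remained between 0.29 and 0.41 with each array left out, and an unadjusted p under 0.05 was reached in each of the 17 refits.

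Ppp1r15a encodes GADD34, which brings a phosphatase to eIF2 and so ends the response. Its signal was 2.37, 2.51, 2.36 and 1.95 in HZ and 2.4, 2.49, 2.38 and 1.94 in KO. Both groups had the same order, with replicate 2 highest and replicate 4 lowest. The differences within numbers were 0.04, -0.02, 0.02 and -0.01, while the SD within a group was 0.24 in HZ and 0.25 in KO. The group difference was 0.0077 (SE 0.16, adjusted p = 0.992, 95% interval -0.37 to 0.38), and with the number as a block its standard error was 0.068. Its sign changed under 6 alternatives.

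Chac1 encodes a gamma-glutamyl cyclotransferase that breaks down glutathione and is a target of ATF4 and ATF3. Its signal was -1.21, -0.43, -0.84 and -1.60 in HZ and -0.47, 0.42, -0.39 and -0.49 in KO. KO replicate 2 was the highest array, and HZ replicate 2, the highest of its own group, lay above KO replicates 1 and 4, so the groups overlapped. The means were -1.02 ± 0.50 and -0.23 ± 0.44 (SD, n = 4 each), a 1.72-fold difference (log2 0.79, SE 0.29, adjusted p = 0.566, 95% interval 0.11 to 1.46). Differences within numbers were 0.74, 0.86, 0.44 and 1.11. With numbers as a block the standard error was 0.13 (adjusted p = 0.308), and Chac1 then passed the looser thresholds. It also did so with normexp background correction (0.65, adjusted p = 0.424), as did 0.262% of all probes in that direction, with trend and robust eBayes and without HZ replicate 2. With each array left out, its difference ranged from 0.57 without KO replicate 2 to 0.98 without HZ replicate 2.

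Herpud1 encodes a membrane protein of the machinery that removes misfolded proteins from the endoplasmic reticulum, and it answers to ATF6 and XBP1 as well as ATF4. Its brighter probe gave 2.12, 2.26, 2.16 and 1.96 in HZ and 2.26, 2.53, 2.31 and 2.30 in KO. The groups did not overlap, although the highest HZ array and the lowest KO array are the same after rounding. The means of 2.12 ± 0.13 and 2.35 ± 0.12 (SD, n = 4 each) differed by 0.23 (SE 0.10, adjusted p = 0.611, 95% interval 0.00044 to 0.46), and by 0.16 with normexp background correction. KO was higher in 4 of 4 pairs.

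The dimmer Herpud1 probe gave -0.16, 0.14, -0.22 and 0.25 in HZ and -0.10, 0.12, -0.21 and 0.12 in KO. These values overlapped fully, with replicates 2 and 4 high in both groups. The difference was -0.02 (SE 0.14, adjusted p = 0.973), and 0.24 (adjusted p = 0.523) with normexp background correction, so the probes of Herpud1 disagreed without that correction.

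Asns encodes asparagine synthetase, which makes asparagine and is a classical target of ATF4. Its brighter probe gave 1.56, 1.69, 1.43 and 1.40 in HZ and 1.72, 1.49, 1.73 and 1.85 in KO. KO replicate 2 lay among the HZ values, and the other KO arrays lay above all HZ arrays. The difference was 0.18 (SE 0.11, adjusted p = 0.694, 95% interval -0.072 to 0.43), and 0.092 with normexp background correction. A much dimmer probe, at -3.35 to -2.99 in HZ and -3.67 to -2.84 in KO, differed by -0.073 (SE 0.18, adjusted p = 0.917).

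Sesn2 encodes sestrin 2, which restrains the growth kinase complex mTORC1 when amino acids run low. Its signal was -0.07, 0.06, -0.34 and 0.22 in HZ and 0.22, 0.17, 0.04 and 0.09 in KO. HZ replicates 1 and 3 lay below all KO arrays, while HZ replicate 4 was level with the highest KO array after rounding, and the SD was 0.24 in HZ and 0.079 in KO. The difference was 0.16 (SE 0.13, adjusted p = 0.742, 95% interval -0.13 to 0.45), and leaving out HZ replicate 3 gave 0.059, while leaving out HZ replicate 4 gave 0.25. With normexp background correction it was 0.22, with an unadjusted p under 0.05.

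Ddit4 encodes REDD1, another restraint on mTORC1 that hypoxia and glucocorticoids also induce. Its signal was 4.8, 5.05, 4.82 and 4.77 in HZ and 4.64, 4.85, 4.76 and 4.81 in KO. HZ replicate 2 was the highest array, and the other values of both groups lay close together. Ddit4 was lower in KO by a difference of -0.094 (SE 0.096, adjusted p = 0.788, 95% interval -0.32 to 0.13), and KO was the higher of a pair in 1 of 4. The difference stayed below 0 under every alternative, from -0.17 with quantile normalization to -0.03 without HZ replicate 2.

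**Figure D2:**
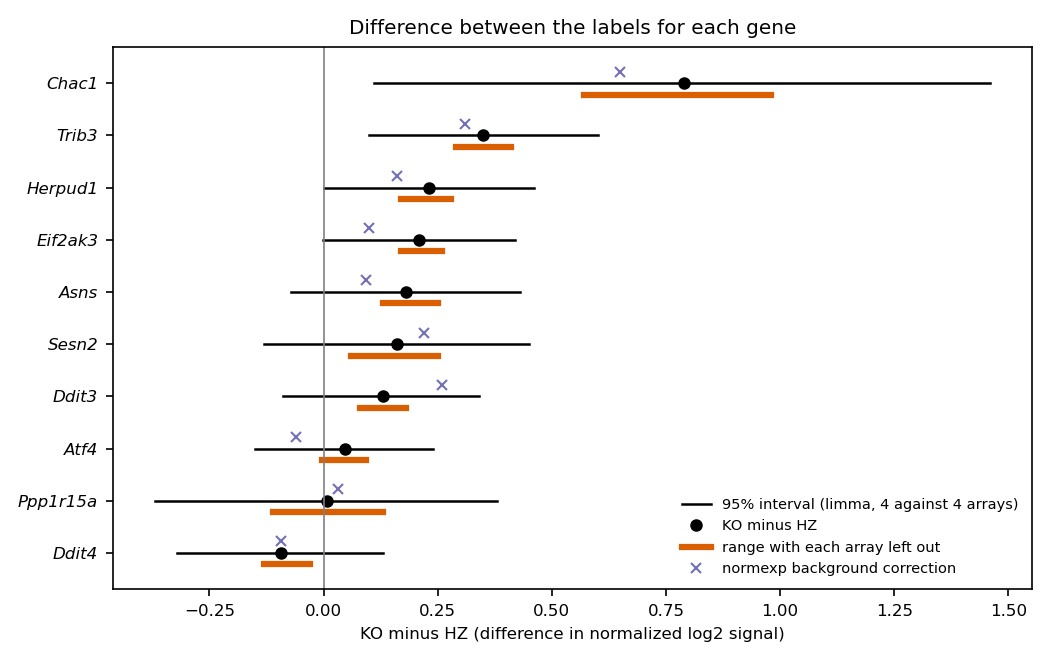
KO minus HZ difference in normalized log2 signal (horizontal axis) of each gene. Points with thin lines are limma differences with 95% intervals, thick lines span the values with each array left out in turn, and crosses are values after normexp background correction. The intervals of Chac1, Trib3 and, narrowly, Herpud1 lie above 0, while Atf4 crosses 0 with normexp background correction and without KO replicate 2, and Ppp1r15a lies at 0.

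**Figure D3:**
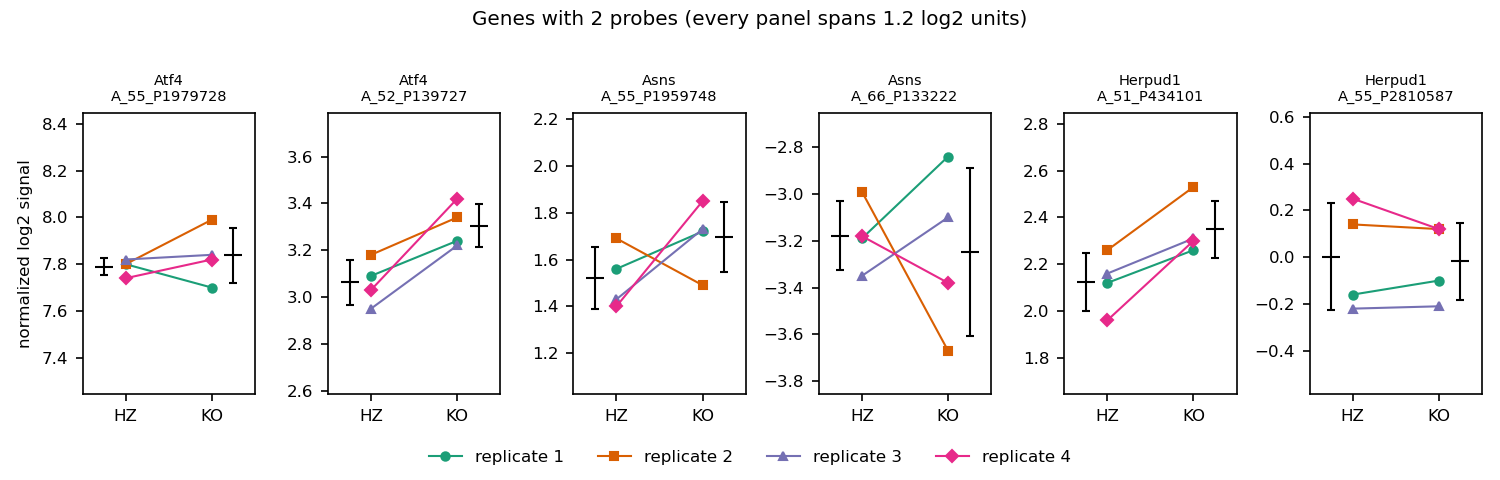
Normalized log2 signal (vertical axis) of both probes of Atf4, Asns and Herpud1 on the 4 HZ and 4 KO arrays. Lines join arrays with the same replicate number and bars give mean and SD. The KO and HZ values do not overlap for the dimmer probe of Atf4 and the brighter probe of Herpud1, and they overlap for the partner probe of each. For Herpud1 the highest HZ value and the lowest KO value are the same after rounding.

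The sequence just upstream of these genes was read for the elements through which the pathway is known to act. The windows were the 250 bases before the annotated start of each gene in RefSeq GRCm38.p6, and 10 of 10 genes had one. The C/EBP-ATF response element, bound by ATF4 or CHOP paired with a C/EBP factor, was searched as TGATGNAA on both strands. It was found in the windows of 3 of 10 genes, Chac1, Asns and Herpud1, and in 3.45% of all 32851 windows. The related form TGACGCAA was found for Chac1 and Herpud1 and in 0.438% of windows. The cyclic AMP response element TGACGTCA, which ATF dimers bind, was found for Ppp1r15a, from 12 to 5 bases before the start, and in 1.55% of windows. The endoplasmic reticulum stress response element, CCAAT and CCACG with 9 bases between them, was found for 0 of the 10 genes and in 0.113% of windows. Its second form, ATTGG and CCACG with 1 base between them, was found for Herpud1 and in 0.0304% of windows. The motifs were matched by letters alone, and no matches overlapped in the windows of the 10 genes. The window of Trib3, with non-overlapping groups, held 0 of these elements. Sequence outside the 250 bases was not searched, so a window without a match does not show that the gene lacks an element.

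The windows of the 3 genes with an unadjusted p under 0.05, Chac1, Trib3 and Herpud1, and of Asns, the classical target, are shown 5′ to 3′ along the strand of the gene, with matched elements in capitals. They lie at chr2:119350992-119351241 on the plus strand for Chac1, chr8:94386179-94386428 on the plus strand for Herpud1, chr6:7693210-7693459 on the minus strand for Asns and chr2:152344061-152344310 on the minus strand for Trib3. The last base of each is the base before the gene's start.
Chac1: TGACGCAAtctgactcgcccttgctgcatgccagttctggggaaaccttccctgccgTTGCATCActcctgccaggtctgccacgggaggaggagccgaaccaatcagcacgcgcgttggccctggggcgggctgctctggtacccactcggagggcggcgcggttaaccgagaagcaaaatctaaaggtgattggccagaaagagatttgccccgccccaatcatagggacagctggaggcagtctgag
Herpud1: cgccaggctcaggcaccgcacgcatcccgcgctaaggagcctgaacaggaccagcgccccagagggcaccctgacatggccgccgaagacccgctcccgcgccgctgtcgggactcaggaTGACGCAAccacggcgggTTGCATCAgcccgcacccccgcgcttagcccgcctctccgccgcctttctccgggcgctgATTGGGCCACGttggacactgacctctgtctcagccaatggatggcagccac
Asns: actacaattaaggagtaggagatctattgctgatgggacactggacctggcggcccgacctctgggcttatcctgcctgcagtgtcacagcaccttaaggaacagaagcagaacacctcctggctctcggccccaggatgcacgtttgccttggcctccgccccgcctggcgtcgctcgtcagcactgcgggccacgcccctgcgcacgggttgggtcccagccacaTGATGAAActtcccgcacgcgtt
Trib3: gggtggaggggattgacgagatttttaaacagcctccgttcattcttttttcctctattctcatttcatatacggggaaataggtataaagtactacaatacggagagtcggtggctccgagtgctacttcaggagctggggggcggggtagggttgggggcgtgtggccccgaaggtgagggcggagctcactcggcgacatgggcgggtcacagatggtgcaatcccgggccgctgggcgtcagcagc
In Chac1 the capitals mark TGACGCAA from 250 to 243 and TTGCATCA, the element on the opposite strand, from 193 to 186 bases before the start. In Herpud1 they mark TGACGCAA from 130 to 123, TTGCATCA from 112 to 105 and ATTGGGCCACG from 52 to 42 bases before the start. In Asns they mark TGATGAAA from 23 to 16 bases before the start. Chac1 was higher in KO by 0.79, and Trib3, without a match, by 0.35. The brighter probes of Herpud1 and Asns were higher by 0.23 and 0.18, and their dimmer probes differed by -0.02 and -0.073. Ppp1r15a, with its cyclic AMP response element, differed by 0.0077.

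Genes with array profiles nearest to those of Trib3 and Herpud1 were sought by the root mean square difference of values centered on their mean over the 8 arrays. For Trib3 these were Srbd1 (0.0664), Pdzk1 (0.0682) and Odc1 (0.0683), against a spread of Trib3 about its own mean of 0.212. For Herpud1 they were Zfp407 (0.0297), Sfr1 (0.0318) and Cul4b (0.0368), against a spread of 0.157. Of the 10 stress genes, Ddit3 was the third nearest to Asns (0.0486), after L3mbtl2 (0.0379) and Nfkbil1 (0.0463), which are not among the 10. L3mbtl2 was also the nearest to Ddit3 (0.0219). Whether such nearness exceeds that of unrelated genes was not tested.

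The rest of the pathway was read from 9 lists of genes around the 10. Of 11 tested eIF2 kinases, eIF2 and eIF2B subunits and the constitutive phosphatase subunit, 7 were higher and 4 lower in KO, with a median of 0.046 and 0 past either pair of thresholds. The largest differences were those of Eif2ak2, the kinase PKR that senses double-stranded RNA (-0.30), Eif2ak1, the heme-regulated kinase (-0.23), and Eif2b1, a subunit of the exchange factor eIF2B (0.19). The adjusted p was 0.676 for Eif2ak2 and 0.815 for Eif2ak1, and with normexp background correction they differed by 0.0028 and -0.10.

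Of the 6 bZIP factors that pair with or act beside ATF4 and CHOP, 5 were higher and 1 lower, with a median of 0.27. Atf3, itself a target of ATF4 and a partner of CHOP, passed the looser thresholds, as did 0.227% of all probes in that direction. Its signal was -1.78, -1.89, -2.25 and -2.11 in HZ and -1.45, -1.04, -1.18 and -1.05 in KO. Every KO array lay above every HZ array, and KO was higher in 4 of 4 pairs. The 1.77-fold difference (log2 0.83, SE 0.14, adjusted p = 0.287) was 0.48 with normexp background correction. It passed the looser thresholds under 10 of 17 alternatives, and did not with normexp background correction, without the filter on dim probes, or without any of HZ replicates 1 and 3 and KO replicates 2, 3 and 4. Cebpb, a partner of both factors, differed by 0.33 (adjusted p = 0.642) and Atf5, a relative of ATF4 under the same translational control, by 0.27 (adjusted p = 0.583).

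Genes of amino acid supply, the best known program of ATF4, showed small differences. Of 11 tested enzymes of amino acid and one-carbon synthesis, 8 were higher and 3 lower, with a median of 0.086 and 0 past either pair of thresholds. The largest differences went in both directions, with Mthfd1l of mitochondrial folate metabolism at -0.38, Phgdh, the first enzyme of serine synthesis, at -0.36, and Mthfd2, a mitochondrial folate enzyme, at 0.21, and with normexp background correction Mthfd1l was -0.023. Leaving out HZ replicate 4 gave a median of 0.0078, and leaving out HZ replicate 2 gave 0.21. Of 8 tested amino acid transporters, 8 were higher, with a median of 0.14 and 0 past the thresholds. They were led by the neutral amino acid transporters Slc1a5 (0.28, adjusted p = 0.614), Slc7a5 (0.16) and Slc1a4 (0.16), but with normexp background correction Slc1a5 was 0.026 and Slc1a4 -0.22. Without KO replicate 2 the transporter median was 0.016. Of 13 cytosolic aminoacyl-tRNA synthetases, 12 were higher and 1 lower, with a median of 0.077, or 0.17 with normexp background correction. Aars, Vars and Iars, which charge alanine, valine and isoleucine tRNAs, differed by 0.28, 0.20 and 0.18, with Aars at 0.56 with normexp background correction, and 0 of the 13 passed the thresholds.

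Of 17 tested stress and cell fate genes with reported ATF4 or CHOP control, 11 were higher and 6 lower, with a median of 0.18. The median was 0.092 without HZ replicate 1, 0.074 without HZ replicate 4 and 0.081 without KO replicate 2. Hmox1, the heme-degrading enzyme that oxidative stress induces, differed by 0.73 (SE 0.34, adjusted p = 0.623). Bbc3, which encodes the pro-apoptotic protein PUMA, differed by 0.44 (adjusted p = 0.611), and Eif4ebp1, a repressor of cap-dependent translation, by 0.36 (adjusted p = 0.585). Of the 17 genes 0 passed either pair of thresholds in the unpaired fit, and Hmox1 ranged from -1.55 to -0.48 in HZ and from -0.62 to 0.64 in KO. Hmox1 passed the looser thresholds with the replicate block (adjusted p = 0.361) and with normexp background correction (0.65, adjusted p = 0.481).

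As a contrast, 7 paralogs of the 10 genes that are not classical ATF4 targets had a median of -0.044, with 2 higher and 5 lower, and 0.042 with normexp background correction. Ddit4l (-0.13), Trib1 (-0.13) and Chac2 (-0.075) had the largest differences, and Trib1 was 0.042 with normexp background correction. Of 23 genes of the ATF6 and IRE1 arms of the unfolded protein response, 9 were higher and 14 lower, with a median of -0.03 that was 0.0057 without HZ replicate 1. Hspa5, the endoplasmic reticulum chaperone BiP, differed by -0.62 (SE 0.24, adjusted p = 0.583), Hsp90b1, the chaperone GRP94, by -0.27 and Sel1l, an adaptor of protein degradation, by -0.22. The Hspa5 signal was 5.28, 4.97, 4.97 and 5.25 in HZ and 5.03, 4.15, 4.83 and 3.98 in KO. KO replicates 2 and 4 were far below the others, and KO replicate 1 lay within the HZ range. Of the 23 genes 0 passed the thresholds in the unpaired fit. Hspa5 passed the looser ones with the replicate number as a block (adjusted p = 0.402). With normexp background correction both Hspa5 (-1.04, adjusted p = 0.226) and Hsp90b1 (-0.66, adjusted p = 0.457) did, while Sel1l was then -0.035. Of all 34303 probes, 913 were lower past the looser thresholds with the block and 300 with normexp. For Herpud1, which answers to these arms as well, the brighter probe was 0.23 higher and the dimmer probe differed by -0.02.

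Of 13 immediate early genes, which also respond to dissociation of tissue, 12 were higher and 1 lower in KO, with a median of 0.14 that was 0.067 without HZ replicate 4. Egr1, a zinc finger factor induced within minutes of a stimulus, passed the looser thresholds (0.62, SE 0.14, adjusted p = 0.377), under 10 of 17 alternatives. It did not pass without the filter on dim probes, or without any of HZ replicates 1, 3 and 4 and KO replicates 2, 3 and 4. Egr2, its relative, differed by 0.78 (SE 0.30, adjusted p = 0.574), or 0.25 after the normexp correction, passed the looser thresholds with the block (adjusted p = 0.386), and its spot exceeded background clearly on 3 of 4 HZ arrays. Ier2 differed by 0.29 (adjusted p = 0.60). Averaged over the 10 stress genes, the deviation of an array from the gene means was -0.21 to 0.041 in HZ and 0.055 to 0.18 in KO. Over the immediate early genes it was -0.24 to 0.019 and 0.028 to 0.24. The summed linear signals overlapped between groups, at 260 to 279 in HZ and 256 to 308 in KO for the 10 stress genes. Most of that sum came from the brighter Atf4 probe, so its overlap says little about the other stress genes. For the immediate early genes the sums were 54.5 to 67.2 and 66.4 to 74. The part of dissociation in these values was not tested.

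**Figure D4:**
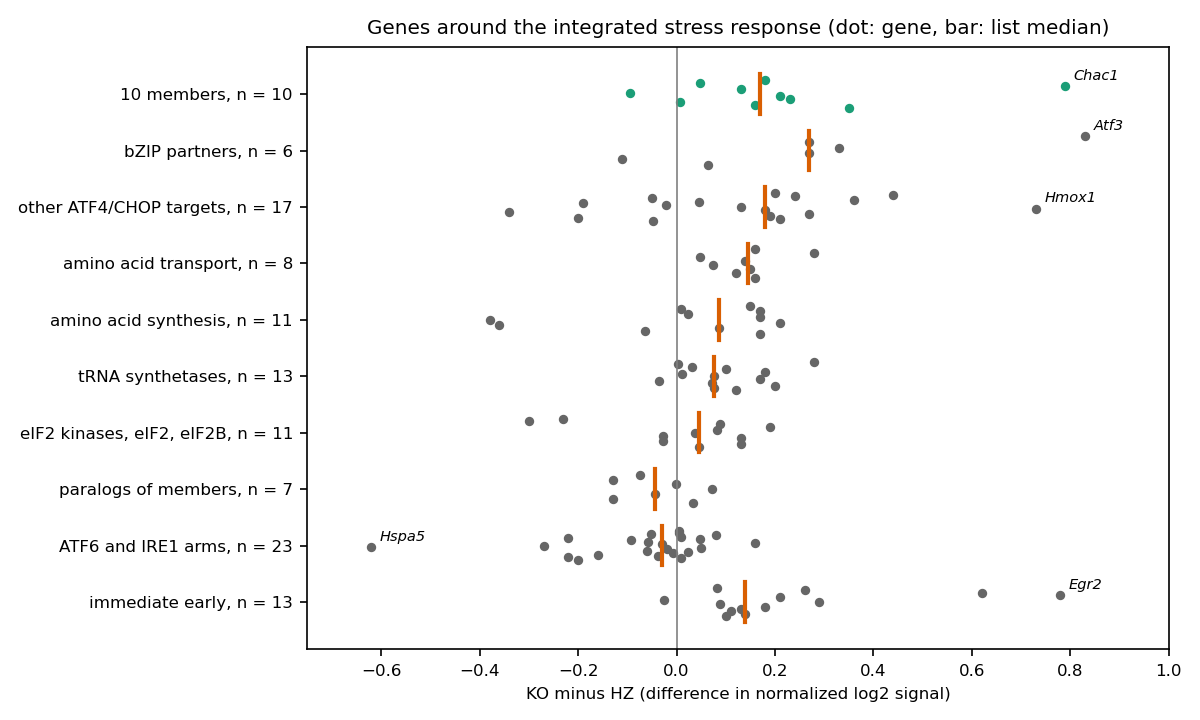
KO minus HZ difference in normalized log2 signal (horizontal axis) of the 10 stress genes and of the tested genes of 9 lists around them. Each dot is a gene and each bar the median of its list, computed with the brightest probe of a gene. The median is 0.17 for the 10 genes, 0.14 for the immediate early genes and highest, 0.27, for the bZIP factors. Those of the paralogs (-0.044, but 0.042 with normexp background correction) and of the ATF6 and IRE1 arms (-0.03, but 0.0057 without HZ replicate 1) lie near 0.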

How the data were processed

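RNA of photoreceptor cells was measured on 8 single-color arrays, and the genotype labels put 4 in the HZ and 4 in the KO group. The deposited scanner output, from Agilent Feature Extraction 10.7.1.1 per the submitters' processing notes, holds background-subtracted spot intensities. The authors also deposited log2 values normalized in GeneSpring by a 75 percentile shift, which served as an alternative. From the intensities, log2 of the processed signal minus the 75th percentile over 59305 non-control spots was computed without outlier spots and averaged per probe. Tests took in probes well above background on 4 or more arrays, with 3 or more values in HZ and in KO. This left 34303 of 56605 probes. A RefSeq name of GRCm38.p6, used for names and upstream windows, was found for 32994 of the 56605.

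The genotypes were compared in limma 3.58.1 (lmFit and eBayes, two-sided; R 4.3.3, data.table version 1.17.8), with Benjamini-Hochberg adjustment over all tested probes, and 95% intervals are limma's. The fit was tested on simulated data with independent noise on each array, so that test does not cover arrays that deviate together. A gene is given by its probe with the highest mean. The 10 genes, the 9 pathway lists and the 7 marker lists were chosen with earlier results of these data known, so no p over a list is given. Named are the 10 genes, Lpcat1, the 3 genes with the largest difference of each pathway list, the 2 of each marker list, and, for genes with non-overlapping groups, the 3 genes with the nearest profile. Tmem119, P2ry12 and Lrat were named after their values were seen, and a gene that the rule takes in is not reported here.

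Arrays with the same replicate number, which is also the slide column, deviated together. The correlation of their departures from the group means was 0.172 to 0.337 (Pearson's r across probes), above the minimum of 0.1 in 4 of 4 pairs. For different numbers it was -0.337 to 0.117, and the numbers were taken to pair the arrays. Departures from a group mean cancel within the group, so these ranges are not independent, and the labels do not state a pairing. The limma fit with the number as a block was an alternative, since the methods name unpaired tests. The others were quantile normalization, normexp background correction (offset 50), scaling to the percentile of bright probes alone, tests without a filter on dim probes or with a stricter filter, trend and robust eBayes, the methods' t-test, the authors' log2 values, the mean of a gene's probes and each array left out. The number of arrays limits the precision. On each array 59.5% to 64.6% of probes exceeded background well, and 0 spots were saturated. Plots were drawn with matplotlib 3.10.9. Arrays of whole retina were not analysed here.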

Additional observations from a re-analysis of the deposited data

Results flagged for a closer look

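Among 24 groups of 4 values, 1 held a value far from the rest, where chance gives about 1.2. Chac1 in KO replicate 2 was 0.42, above the other KO arrays at -0.49 to -0.39, and the gap was 0.891 of the range of the group, above Dixon's critical value. HZ replicate 2 was likewise the highest array of its group for Chac1. Without KO replicate 2 the difference of Chac1 was 0.57 in place of 0.79.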

How the results depend on the processing

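Under 17 alternatives that gave the median of the 10 genes, it lay between 0.13 and 0.20. The replicate block gave 913 lower and 254 higher probes at the looser thresholds, where 279 and 78 were called without it, and among the 10 genes the block changed the call of Chac1 alone. In the lists the block added looser calls of 1 other target, 1 ATF6 or IRE1 gene, 1 immediate early gene, 2 pigment epithelium, 8 microglial, 1 bipolar and 3 vascular markers. Atf4 reversed with normexp background correction (-0.06) and without KO replicate 2 (-0.0033). Ppp1r15a reversed with quantile normalization (-0.023), with the percentile over bright probes (-0.023), and without HZ replicate 4 (-0.11), KO replicate 1 (-0.026), KO replicate 2 (-0.055) or KO replicate 3 (-0.019). Leaving out arrays gave -0.0033 to 0.092 for Atf4 and -0.11 to 0.13 for Ppp1r15a. The other 8 genes kept their sign under every alternative. At the stricter thresholds, where 0 probes were called, 1 probe was higher and 2 lower with trend and robust eBayes, 4 and 13 with normexp, 1 and 1 with quantile normalization, and 2 higher with the methods' t-test. At the looser thresholds, without the filter on dim probes, 9 were higher and 32 lower, and 178 were lower with quantile normalization. With each array left out, 0 to 361 were higher and 0 to 1353 lower, both highest without HZ replicate 2, and 0 to 0 at the stricter thresholds. With normexp the median of the tRNA synthetases was 0.17 and that of the paralogs 0.042. Leaving out arrays gave medians of 0.016 to 0.18 for the transporters, 0.074 to 0.25 for the other targets and -0.072 to 0.016 for the paralogs. The causes were not tested.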

Other observations

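Markers of the remaining retinal cell types are given as values. Of 10 Muller glia markers, 3 were higher and 7 lower in KO, with a median difference of -0.20, led by Clu, which encodes clusterin (-0.56), and the glial factor Sox9 (-0.48). Their summed signal was 36.6 to 44.7 in HZ and 30.7 to 45.6 in KO. Of 8 bipolar cell markers, 2 were higher and 6 lower, with a median of -0.25. Among them the channel gene Trpm1 differed by -0.42, and their summed signal was 194 to 238 in HZ and 190 to 211 in KO. Of 12 amacrine, horizontal and ganglion cell markers, 4 were tested, with 2 higher and 2 lower, and the factors Pou4f1 (-0.80) and Pax6 (-0.38) had the largest differences. Of 6 tested vascular markers, 4 were higher and 2 lower, with a median of 0.40, led by Vwf (1.41), the von Willebrand factor, and Cldn5 (1.24), a claudin of endothelial junctions. They were well above background on 2 and 3 of 4 HZ arrays, HZ replicate 3 was lowest at -7.53 and -6.22, and with normexp background correction they differed by 0.37 and 0.60. Their summed signal was 0.716 to 2.74 in HZ and 0.65 to 1.54 in KO, so that the sum and the median ran in opposite directions. Of the tested genes of these 4 lists, 0 passed the stricter or the looser thresholds in the unpaired fit. At the looser ones 1 bipolar and 3 vascular markers passed with the replicate block, and Clu (-0.71) and Cldn5 with normexp background correction.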
